A study of Mus musculus with 4 samples.

Results

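Transcript levels of AMPA receptor subunits and their auxiliary proteins were compared between wild-type and ADAR2-deficient mouse brain. The genes were Gria1, Gria2, Gria3 and Gria4 for the pore-forming subunits, Cacng2, Cacng3, Cacng4 and Cacng8 for the transmembrane auxiliary proteins, and Cnih2 and Cnih3 for the cornichons. They were taken by an exact match of the gene symbol in the deposited array table, whatever their values. These 10 genes had 11 transcript clusters, a cluster being the group of probes assigned to a transcribed locus, out of 24515 gene symbols and 33793 clusters on the array.

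AMPA receptors carry most fast excitatory transmission in the brain. Each receptor is a tetramer of the subunits GluA1 to GluA4, encoded by Gria1 to Gria4, and the stargazin-like proteins and cornichons that bind it bring it to the cell surface and slow its closing. ADAR2, encoded by Adarb1, converts an adenosine in the Gria2 transcript to inosine, which turns a glutamine codon of the pore into one for arginine and makes receptors with GluA2 poorly permeable to calcium.

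The arrays measured RNA, not editing or protein. All 4 mice were adult females of the 129SV strain and, per the study's methods, all of them carried the pre-edited Gria2 R/R allele, in which the arginine is encoded in the genome and which rescues Adar2-/- mice from dying soon after birth. The 2 wild-type mice were therefore Gria2 R/R with both Adarb1 copies intact, and the 2 knockout mice were Gria2 R/R and Adar2-/-, a constitutive deletion that is not limited to neurons. The mice were siblings from crosses of heterozygous parents, and RNA came from whole brain. No mouse with an unaltered Gria2 gene was measured, so the 2 Gria2 alleles were not compared.

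Values are normalized log2 signals, on which a difference of 1 is a doubling. Array medians lay between 6.03 and 6.09. Y-linked genes are absent from these females, and their 4 clusters, at 3.49 to 4.40, mark the level of background. All member clusters read between 6.89 and 11.63, above that range on every array. Adarb1 itself read 10.50 and 10.45 in wild type and 9.16 and 8.96 in knockout, a difference of -1.42 (SE 0.12, limma adjusted p = 0.409, unadjusted p = 2.57e-05). Both knockout arrays were below both wild-type arrays, as their labels require, although this did not pass the adjusted threshold. How the probes lie against the deleted stretch of Adarb1 was not examined.

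No AMPA receptor gene passed the test. With limma and Benjamini-Hochberg adjustment over all clusters, 0 of the 11 member clusters had an adjusted p below 0.05, where 0.00% of all clusters did, and the adjusted p of the members ran from 0.834 to 0.986. At an unadjusted p below 0.05, 1 member was lower in knockout and 0 were higher, against 2.31% and 3.64% of all clusters. That member was the cornichon gene Cnih3. In 4 of 11 clusters, those of Cnih3, Cacng3, Gria1 and a Cacng2 cluster on the opposite strand, both knockout arrays were below both wild-type arrays, which was 36.4% of the members against 16.5% of all clusters. No member had both knockout arrays above both wild-type arrays, as 17.7% of all clusters did. In the other 7 clusters the genotypes overlapped.

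**Figure D1:**
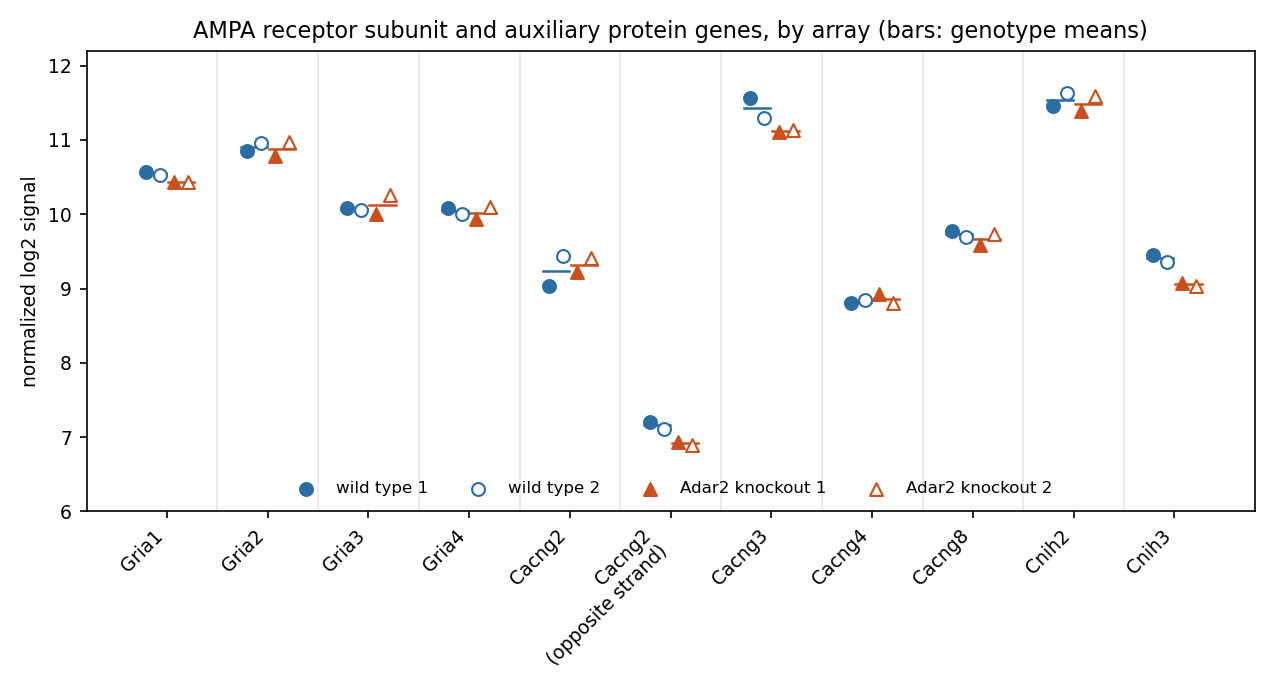
Normalized log2 signal of each of the 11 clusters on the 4 arrays. Circles are wild type, triangles are Adar2 knockout, filled symbols are replicate 1, open symbols are replicate 2, and bars are genotype means. The knockout triangles lie below both circles for Gria1, Cacng3, Cnih3 and the opposite-strand Cacng2 cluster, and mix with them elsewhere.

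The regions just before the transcription starts of the cornichon genes are shown because Cnih3 had the largest difference between genotypes and Cnih2 is the paralogue of Cnih3 whose genotypes overlapped. RefSeq (GRCm38.p6) gave such a sequence for 7 of the 10 genes, with none matched for Gria1, Gria3 and Cacng4. Each runs 5′ to 3′ along the gene, from 250 bases before the start to 50 bases into the transcript. Capitals mark the GC box, searched as GGGCGG on both strands, so that CCGCCC is a match.
Cnih3, chr1:181352378-181352677, plus strand: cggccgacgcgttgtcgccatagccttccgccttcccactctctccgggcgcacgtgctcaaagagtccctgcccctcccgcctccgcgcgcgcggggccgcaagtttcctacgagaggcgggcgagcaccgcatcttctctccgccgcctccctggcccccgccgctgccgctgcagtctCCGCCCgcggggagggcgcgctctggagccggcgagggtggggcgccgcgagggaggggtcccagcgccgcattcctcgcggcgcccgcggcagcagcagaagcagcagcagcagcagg
Cnih2, chr19:5098472-5098771, minus strand: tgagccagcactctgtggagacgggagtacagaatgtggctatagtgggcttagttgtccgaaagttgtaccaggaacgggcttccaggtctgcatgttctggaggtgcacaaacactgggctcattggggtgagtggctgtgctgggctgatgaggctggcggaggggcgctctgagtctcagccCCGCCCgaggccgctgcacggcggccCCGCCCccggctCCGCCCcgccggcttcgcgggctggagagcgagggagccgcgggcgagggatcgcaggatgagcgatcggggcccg
The Cnih3 sequence was 75.3% G and C, above 96.4% of all 32851 RefSeq promoters, and held 42 CpG dinucleotides and 1 GC box. Cnih2 was 67.3% G and C with 25 CpG and 3 GC boxes, where the median of all promoters was 52.7%. A GC box was present in 35.7% of all promoters. The other motifs, searched on both strands, were in none of the 7 member sequences. These were the cAMP response element TGACGTCA (1.79% of all promoters), the shorter TGACG that it contains (20.8%) and the TATA box TATAAA (13.6%). The Gria2 sequence, at 65.7% G and C, held 26 CpG and that of Cacng2 held 20. A match of letters is a description of the sequence and does not show that a factor binds there.

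The 4 subunit genes differed between genotypes by -0.115 to 0.055. Gria2, whose transcript carries the codon that ADAR2 edits in animals without the R/R allele, was measured by 23 probes on chromosome 3, 80684936 to 80802791, minus strand, in the file's coordinates, for which it names no genome build. It read 10.85 and 10.96 in wild type and 10.79 and 10.97 in knockout. The lowest and the highest of the 4 values were both knockout arrays, so the genotypes overlapped fully. The difference of knockout minus wild type was -0.025 (SE 0.12, 95% interval -0.32 to 0.27, limma adjusted p = 0.986). The knockout level was thus 98.3% of wild type, with an interval of 80.3% to 120%.

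Gria1 encodes GluA1, the partner of GluA2 in most receptors of forebrain principal neurons and a main carrier of activity-dependent receptor insertion. Its 35 probes on chromosome 11, 57011387 to 57330244, plus strand, gave 10.57 and 10.53 in wild type and 10.43 and 10.44 in knockout. It was the only subunit gene whose genotypes did not overlap, with a gap of 0.09 between the lower wild-type and the higher knockout array. The difference was -0.115 (SE 0.10, 95% interval -0.37 to 0.14, limma adjusted p = 0.9).

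Gria3 and Gria4 encode subunits whose transcripts, like that of Gria2, are also edited at another codon, just ahead of the alternative flip and flop exons. Gria3 (33 probes, chromosome X, 41401128 to 41678601, plus strand) read 10.09 and 10.06 in wild type and 10 and 10.26 in knockout, so that the knockout arrays stood on either side of the wild type. Its difference was 0.055 (SE 0.13, 95% interval -0.26 to 0.37, limma adjusted p = 0.970). Gria4 (33 probes, chromosome 9, 4417818 to 4796234, minus strand), prominent in interneurons and in the cerebellum, read 10.09 and 10 in wild type and 9.94 and 10.10 in knockout. Here too the knockout arrays enclosed the wild type, and the difference was -0.025 (SE 0.11, 95% interval -0.31 to 0.26, limma adjusted p = 0.985).

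Of the stargazin-like clusters, that of Cacng3 had the largest difference. It encodes the cortical auxiliary subunit gamma-3 and was measured by 23 probes on chromosome 7, 122671744 to 122769393, plus strand. It read 11.57 and 11.30 in wild type and 11.11 and 11.14 in knockout. The knockout arrays lay close together and 0.16 or more below both wild-type arrays, which were themselves 0.27 apart. The difference was -0.31 (SE 0.13, 95% interval -0.63 to 0.01, limma unadjusted p = 0.054, adjusted p = 0.834), a knockout level of 80.7% of wild type. It rested in part on wild-type replicate 1, without which the difference was -0.175. Without wild-type replicate 2 it was -0.445. The unadjusted p was below 0.05 in 5 of 13 alternative analyses, which were this one, median centring, clusters at or above the median signal, the intensity trend and the table without cross-hybridizing clusters.

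Cacng2 encodes stargazin, the auxiliary subunit missing in the ataxic stargazer mouse and the main one of cerebellar granule cells. The cluster on the gene's own minus strand (27 probes, chromosome 15, 77991748 to 78120028) read 9.04 and 9.44 in wild type and 9.22 and 9.41 in knockout. Both knockout arrays lay between the wild-type arrays, whose gap was the widest within a genotype of all 11 clusters, and the difference was 0.075 (SE 0.16, 95% interval -0.33 to 0.48, limma adjusted p = 0.968).

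A second cluster with the symbol Cacng2 lay on the plus strand, opposite to the RefSeq gene (23 probes, chromosome 15, 78119706 to 78144142). It overlapped the first by 323 bases at the 5′ end of the first cluster and ran 24114 bases beyond it. If the file's coordinates are those of the RefSeq build, the whole second cluster lay upstream of the RefSeq start of Cacng2. Its probes then read the plus strand ahead of the gene rather than the RefSeq stargazin transcript. It was the dimmest member cluster, at 7.21 and 7.11 in wild type and 6.94 and 6.89 in knockout. Both knockout arrays were lower, by a gap of 0.17, and the difference was -0.245 (SE 0.11, 95% interval -0.51 to 0.02, limma adjusted p = 0.835). The 2 Cacng2 clusters therefore had differences of opposite sign. Left out, the cluster on the opposite strand reduced the count of members that did not overlap from 4 to 3.

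The remaining stargazin-like genes overlapped between genotypes. Cacng8, which encodes the hippocampal auxiliary subunit gamma-8, was measured by 16 probes on chromosome 7, 3394117 to 3415605, plus strand, and read 9.77 and 9.69 in wild type and 9.58 and 9.74 in knockout. Knockout replicate 1 was the lowest of the 4, and replicate 2 lay within the wild type. The difference was -0.07 (SE 0.11, 95% interval -0.35 to 0.21, limma adjusted p = 0.953). Cacng4, the gamma-4 gene with its highest expression in early life, was measured by 23 probes on chromosome 11, 107732357 to 107794557, minus strand, and read 8.80 and 8.85 in wild type and 8.93 and 8.80 in knockout. It differed by 0.04 (SE 0.11, 95% interval -0.23 to 0.31, limma adjusted p = 0.977), and was the only member with knockout replicate 1 as its highest array.

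The cornichon homologues promote export of AMPA receptors from the endoplasmic reticulum and slow their deactivation. Cnih3 (22 probes, chromosome 1, 181352628 to 181460641, plus strand) read 9.45 and 9.36 in wild type and 9.08 and 9.04 in knockout. The gap of 0.28 between the genotypes was wider than the spread within either, which was 0.09 in wild type and 0.04 in knockout. The difference was -0.345 (SE 0.10, 95% interval -0.60 to -0.09, limma unadjusted p = 0.0175, adjusted p = 0.834). The knockout level was 78.7% of wild type (65.8% to 94.2%), and its interval was the only one of the 11 without 0. The unadjusted p passed 0.05 in 11 of 13 alternative analyses and missed it without wild-type replicate 1, where the difference was -0.3, and without knockout replicate 2, where it was -0.325.

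Cnih2 (14 probes, chromosome 19, 5092871 to 5098418, minus strand), the cornichon of hippocampal pyramidal cells, read 11.45 and 11.63 in wild type and 11.39 and 11.59 in knockout. Replicate 2 was above replicate 1 in each genotype, and those gaps, 0.18 and 0.20, were wider than the difference between genotypes of -0.05 (SE 0.13, 95% interval -0.37 to 0.27, limma adjusted p = 0.976).

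**Figure D2:**
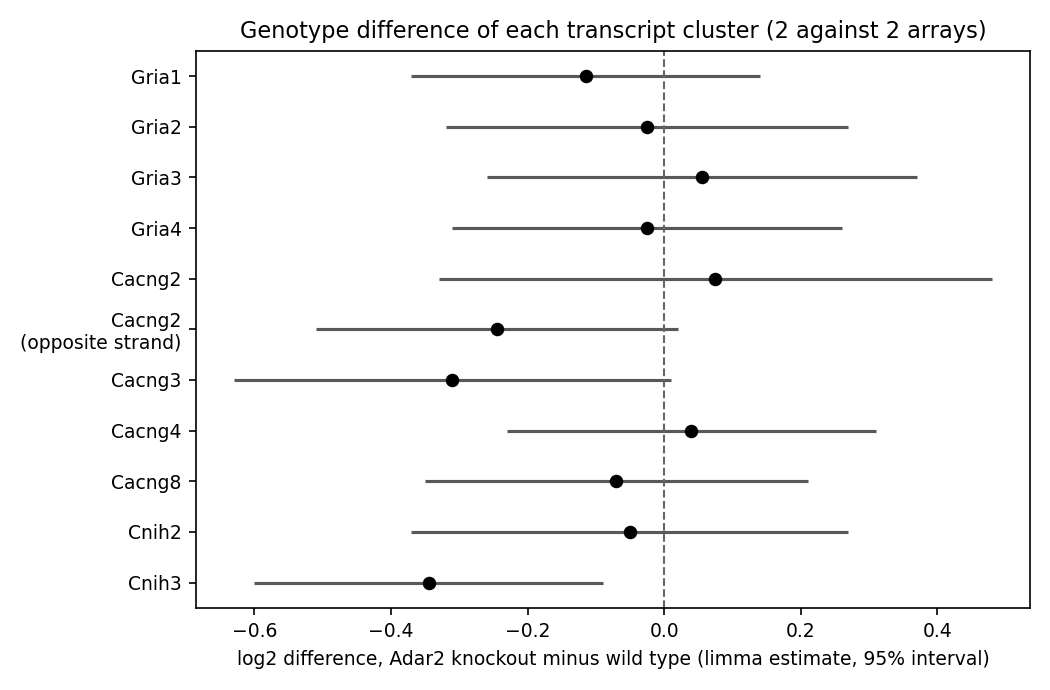
Difference of knockout minus wild type on the log2 scale for each cluster, as points with 95% limma intervals (2 arrays against 2). Only the Cnih3 interval, -0.60 to -0.09, lies wholly below 0, and the intervals of Cacng3 and the opposite-strand Cacng2 cluster end just above 0.

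Over the members, 8 clusters were lower and 3 higher in knockout, while 47.7% of all clusters were lower. The median difference was -0.05 against 0.005 over all clusters. Over the 11857 clusters with a mean signal in the range of the members, the median was -0.035, 62% were lower and 24.6% had both knockout arrays below both wild-type arrays, so bright clusters in general leaned the same way. The half-width of the members' intervals was 0.25 to 0.41, and 10 of the 11 intervals included 0.

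The 2 knockout arrays did not deviate alike. Knockout replicate 1 was the lowest of the 4 arrays in 7 of 11 clusters and lay below both wild-type arrays in 9 of 11, against 39.4% of clusters in the same range of signal. Knockout replicate 2 did so in 4 of 11, against 45.1%. Median deviations from the mean of the 4 arrays were 0.0575 and 0.0375 in wild-type replicates 1 and 2, -0.102 in knockout replicate 1 and 0.045 in knockout replicate 2. The clusters low in both knockout arrays were Cnih3, Cacng3, Gria1 and opposite-strand Cacng2. Gria2, Gria3, Gria4, Cacng8 and Cnih2 were below both wild-type arrays in knockout replicate 1 alone. In 7 of 11 clusters the difference between genotypes was smaller than the larger gap between replicates.

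Related genes were also set against each other within each array, which removes any constant offset of an array. The 7 pairs took Gria2, Cacng2 (minus strand) or Cnih2 as the partner, and differences between genotypes were tested by an exact permutation test, two-sided, for which 0.333 is the smallest p possible with 2 arrays against 2. Cnih3 minus Cnih2 was -2.00 and -2.27 in wild type and -2.31 and -2.55 in knockout, a shift of -0.295 (SE 0.18, exact permutation p = 0.333, adjusted over the 7 pairs 0.933). This was the only pair whose genotypes did not overlap, by 0.04, and the shift ran from -0.43 without wild-type replicate 2 to -0.16 without wild-type replicate 1.

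Cacng3 minus Cacng2 was 2.53 and 1.86 in wild type and 1.89 and 1.73 in knockout, a shift of -0.385 with an SE of 0.34, with wild-type replicate 1 far from the other 3 arrays. The shift was -0.05 without that array and -0.72 without wild-type replicate 2. Cacng8 minus Cacng2 was 0.73 and 0.25 against 0.36 and 0.33, and Cacng4 minus Cacng2 was -0.24 and -0.59 against -0.29 and -0.61. In both the wild-type arrays were further apart than the genotypes, with shifts of -0.145 (SE 0.24) and -0.035 (SE 0.24).

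Among the subunits, Gria1 minus Gria2 was -0.28 and -0.43 in wild type and -0.36 and -0.53 in knockout, a shift of -0.09 (SE 0.11). Gria3 minus Gria2 was -0.76 and -0.90 against -0.79 and -0.71, a shift of 0.08 (SE 0.08). Gria4 minus Gria2 was -0.76 and -0.96 against -0.85 and -0.87, and the genotype means were equal (SE 0.10). The subunit ratios overlapped between genotypes in all 3 pairs, and the exact permutation p of the 6 pairs other than the cornichons was 0.667 to 1.

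**Figure D3:**
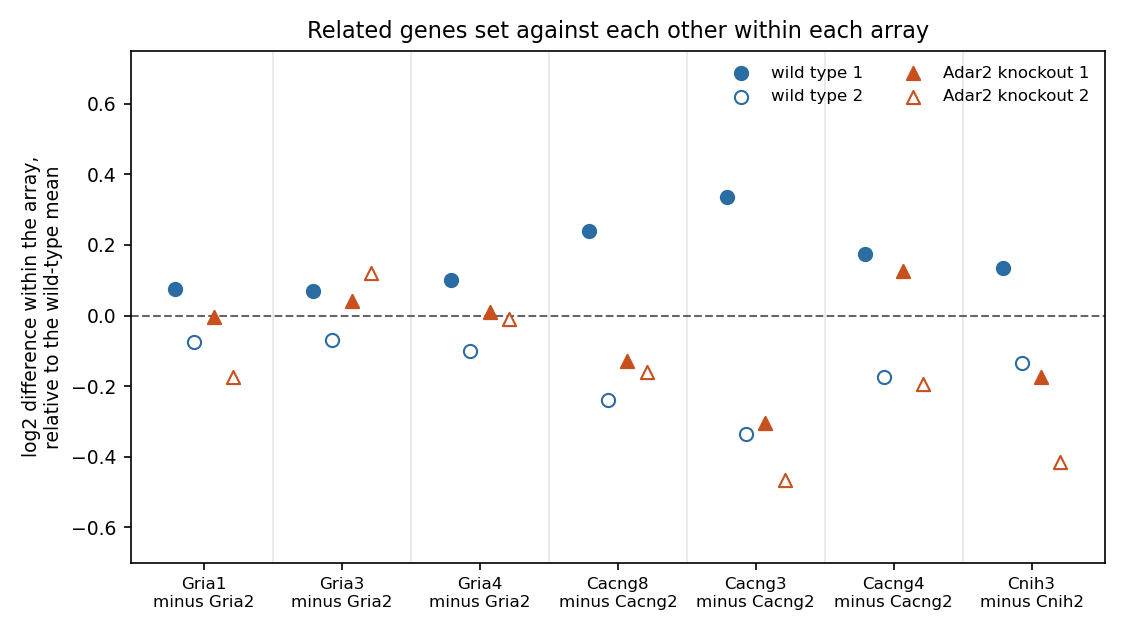
Log2 difference between related genes within each array, shown relative to the wild-type mean of each pair. Circles are wild type and triangles Adar2 knockout, filled for replicate 1 and open for replicate 2, and only in Cnih3 minus Cnih2 do both triangles lie below both circles.

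Further proteins that join or assemble AMPA receptors, among them other stargazin-like, Shisa and olfactomedin proteins, were measured by 18 clusters of 17 genes. Of these, 14 were lower and 4 higher in knockout, and 0 had an unadjusted limma p below 0.05 in either direction. Both knockout arrays were below both wild-type arrays in 10 clusters and above in 1, against 16.5% and 17.7% of all clusters. Over clusters in the members' range of signal, 62% were lower and 24.6% were lower with no overlap. The median difference of the list was -0.12, with a range of -0.275 to 0.11. Among the lower clusters, 1 listed as Lrrtm4 but on the strand opposite to the RefSeq gene, read 2.88 to 3.09, below the level of the Y-linked genes, and its genotypes overlapped. The 4 with the largest differences are given with their values. Cacng5, of the atypical stargazin-like group, read 8.94 and 9.11 in wild type and 8.75 on both knockout arrays (-0.275, SE 0.11, limma adjusted p = 0.834). The Lrrtm4 cluster on the gene's own strand, for a leucine-rich adhesion protein of excitatory synapses, read 8.59 and 8.46 against 8.36 and 8.16 (-0.265, SE 0.12, limma adjusted p = 0.835). The genotypes did not overlap for either of these clusters. Olfm1, a secreted olfactomedin found in AMPA receptor complexes, read 11.59 and 11.53 against 11.27 and 11.41 (-0.22, SE 0.11, limma adjusted p = 0.841). Nrn1, the activity-induced neuritin, read 11.12 and 10.91 against 10.85 and 10.80 (-0.19, SE 0.12, limma adjusted p = 0.856). In both genes, too, each knockout array was below each wild-type array.

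Scaffold and trafficking proteins of the receptor were measured by 16 clusters, of which 10 were lower, 5 higher and 1 equal, with a median difference of -0.02. None had an unadjusted limma p below 0.05. Both knockout arrays were below both wild-type arrays in 6 clusters and above in 1, against 16.5% and 17.7% of all clusters. Of clusters in the members' range of signal, 24.6% were lower with no overlap. Nptx2, a pentraxin that clusters AMPA receptors from outside the cell, read 9.57 and 9.56 in wild type and 9.41 and 9.18 in knockout (-0.27, SE 0.12, limma adjusted p = 0.835). Pick1, which binds the GluA2 tail, read 7.97 and 7.83 against 7.73 and 7.66 (-0.205, SE 0.11, limma adjusted p = 0.846). Dlg4, which encodes the postsynaptic scaffold PSD-95, read 10.89 and 10.84 against 10.75 and 10.70 (-0.14, SE 0.10, limma adjusted p = 0.873). These 3 genes did not overlap between genotypes, while Gripap1, an endosomal partner of the GRIP scaffolds, did, at 8.45 and 8.22 against 8.28 and 7.99 (-0.20, SE 0.15, limma adjusted p = 0.873).

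Markers of brain regions and of adjoining tissue differed between arrays, and their part in the member differences was not tested. In whole-brain RNA, fewer cells of a type and less RNA per cell cannot be told apart. Of 12 clusters of cortical and hippocampal pyramidal neuron markers, cells known to express Cacng3, Cacng8 and Cnih2, 11 were lower in knockout, 7 with no overlap and 3 with an unadjusted limma p below 0.05, and their median difference was -0.225. Over all clusters 16.5% were lower with no overlap and 2.31% lower with such a p. Over clusters in the members' range of signal these shares were 24.6% and 2.4%. The count of 3 became 0 without wild-type replicate 1 or without knockout replicate 2, and 1 without knockout replicate 1 or after quantile or loess normalization. The median of these markers was -0.135 without wild-type replicate 1. Camk2a is a marker in this list and is also in the scaffold list. The summed signal of the pyramidal markers on the linear scale was 13061 and 12228 in wild type and 11619 and 11267 in knockout. The median difference was -0.142 for striatal projection neuron markers (8 of 10 clusters lower), -0.11 for cerebellar neuron markers (10 of 13), -0.13 for olfactory bulb markers (8 of 10) and -0.04 for general neuron markers (8 of 9). The general neuron median was -0.075 without knockout replicate 2, -0.08 after median centring and 0.00915 after loess normalization. For astrocyte and Bergmann glia markers the median difference was -0.08 (5 of 9 lower), and for oligodendrocyte lineage markers it was -0.0575 (8 of 10). Clusters lower with an unadjusted limma p below 0.05 numbered 1 in the striatal, 1 in the olfactory bulb, 1 in the astrocyte and 2 in the oligodendrocyte list, and each of these counts was 0 with the replicate block. The oligodendrocyte median was -0.0025 without wild-type replicate 2 and -0.00769 after loess normalization, and the astrocyte median was -0.0363 after loess. The olfactory bulb median was -0.36 without knockout replicate 1 and 0.01 without knockout replicate 2. The cerebellar median was -0.07 without wild-type replicate 2 and -0.0614 after loess normalization, and the striatal median was -0.095 without wild-type replicate 1 and -0.0942 after loess. Of the lower cerebellar clusters, 1 listed as Neurod1 lay on the strand opposite to the RefSeq gene and read 6.44 to 6.78 (difference -0.185).

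Markers of pituitary and salivary gland, which adjoin the brain or lie near it, were uneven between arrays. Pituitary markers summed to 722 and 625 in wild type and 2709 and 1730 in knockout, with 13 of 15 clusters higher in knockout. Of these, 3 (Prl, Gh and Pomc) had an unadjusted limma p below 0.05. Over all clusters 3.64% were higher with such a p and 47.7% were lower at any p. Among the higher clusters, 1 listed as Cga but on the strand opposite to the RefSeq gene read 2.69 to 3.03, below the level of the Y-linked genes. Pou1f1, at 3.88 to 4.16, was within that level, and Fshb and Tshb differed by only 0.015 and 0.01. The hormone genes Prl and Gh, named with Pomc after their values were seen, carried most of the sum on both knockout arrays, with differences of 4.12 and 3.17. The median difference of the list was 0.165, and it was 1.64 when only clusters at or above the median signal were kept. Salivary gland markers summed to 584 and 593 in wild type and to 2492 and 609 in knockout, with 11 of 14 clusters higher (median difference 0.13). Of these higher clusters, those of Prol1, Smr2, Dcpp2 and a Muc19 cluster read no higher than the Y-linked genes on any array. The cluster of Dcpp2 was the only one of the list with an unadjusted limma p below 0.05. It read 3.63 and 3.67 in wild type and 4.34 and 4.32 in knockout, all within the background range of 3.49 to 4.40. The list's count with an unadjusted p below 0.05 was 2 with the pooled-variance test and 0 among clusters at or above the median signal. Dcpp1 and Smr3a, both secretory products of that gland and named for their values, read 10.20 and 8.47 on knockout replicate 1 and at most 5.98 and 4.12 on the other arrays. That was the array on which the member clusters were most often lowest. The olfactory bulb markers summed to 3131 and 3623 in wild type and 3241 and 2474 in knockout, lowest on knockout replicate 2. Without knockout replicate 1 the difference of Cnih3 was -0.365 and that of Cacng3 was -0.295, and the median of the members was 0.01.

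**Figure D4:**
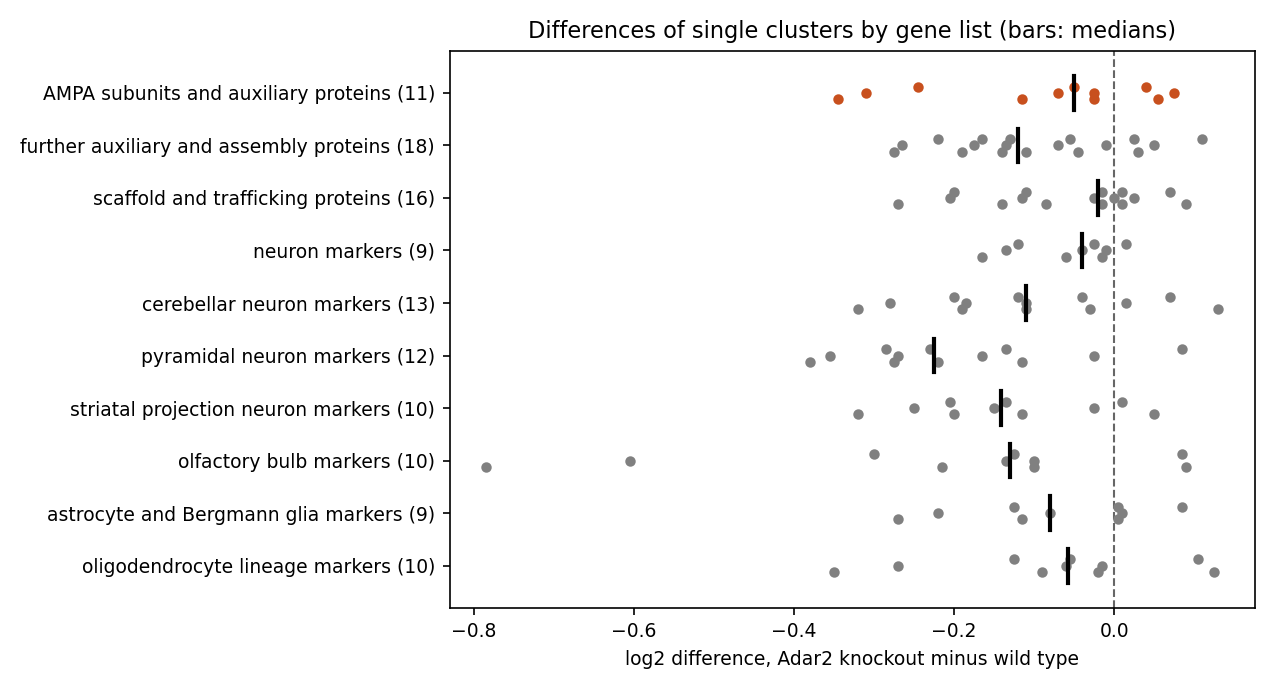
Difference of knockout minus wild type (log2) for each cluster of the AMPA receptor genes and of 9 related lists, with the number of clusters in parentheses and a bar at each median. The members have a median of -0.05, between the scaffold list at -0.02 and the further auxiliary proteins at -0.12, and the pyramidal neuron markers have the lowest median, -0.225.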

How the data were processed

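Total RNA of 4 whole brains was prepared with a whole-transcript kit and hybridised to Affymetrix mouse gene arrays by a core facility. Expression Console and RMA are named in the submitters' processing notes. The authors deposited one table with a normalized log2 signal per transcript cluster and array, to 2 decimals. The table also holds the authors' means, log ratios, fold changes and p-values, none of which was used. It names no genome build and gives no detection calls, and it marks 4954 clusters, but no member, as able to cross-hybridize. RMA makes the arrays' distributions alike, so a shift common to all genes cannot be seen.

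Genotypes were taken from the sample labels. All 33793 clusters were fitted with limma 3.58.1 in R 4.3.3 by lmFit and eBayes with a single genotype term and no filter, and two-sided p-values were adjusted by Benjamini-Hochberg over all clusters. The prior SD was 0.125 with 3.79 degrees of freedom. Replicates were separate animals per the study's methods, and p-values measure only the spread between these 4 arrays, whose number limits the precision. Related genes were compared within arrays by exact permutation. Tables and plots were made with Python 3.11.15, pandas 2.3.3 and matplotlib 3.10.9, and the calculations were tested on simulated data.

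Every member cluster is named. Of the auxiliary and scaffold lists, clusters with an unadjusted p below 0.05 were to be named and, with fewer than 4 of them, the 4 with the largest absolute difference. At most 2 markers were to be named for a list that differed within a genotype, and Prl, Gh, Pomc and Dcpp2 were named outside these rules after their values were seen. The members and the lists were chosen with earlier results of these data known. Promoter sequences are from RefSeq. Older symbols in the file were matched through RefSeq synonyms. Shisa8 and Nptxr had no match and were not analysed here, and some further items are not reported here. The alternatives tried were quantile, cyclic loess or median-centred values, a filter at the median signal, an intensity trend, robust eBayes, a pooled-variance test without shrinkage, a block for the replicate number, the table without cross-hybridizing clusters, and the fit without each array in turn. Leaving out the opposite-strand Cacng2 cluster was chosen after seeing the data.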

Additional observations from a re-analysis of the deposited data

How the results depend on the processing

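The count of members past an adjusted p of 0.05 was 0 under every alternative run. The pooled-variance test without shrinkage passed 15 of all clusters at that threshold, where limma passed 0. Of 143 member differences recomputed, 116 kept their direction and their side of an unadjusted p of 0.05, 2 lost it, 9 gained it and 16 changed sign. The cause was not tested, and each change of sign was of a small difference. Gria2 became 0.01 with quantile and 0.0254 with cyclic loess normalization, Gria4 0.0112 and 0.0244, and Cnih2 0.000154 with loess. Leaving out 1 array, differences ranged from -0.115 to 0.065 for Gria2, from -0.075 to 0.185 for Gria3, from -0.105 to 0.055 for Gria4, from -0.125 to 0.275 for Cacng2, from -0.025 to 0.105 for Cacng4, from -0.15 to 0.01 for Cacng8 and from -0.15 to 0.05 for Cnih2. Over all 13 alternatives, not only those that left out an array, Cnih3 stayed between -0.39 and -0.298, Cacng3 between -0.445 and -0.175 and Gria1 between -0.155 and -0.0649.

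Median centring shifted the median of all clusters from 0.005 to -0.035. The count of members with an unadjusted p below 0.05 was 3 after median centring, 3 among clusters at or above the median signal, 2 with an intensity trend, 3 with the pooled-variance test without shrinkage, 2 without clusters that can cross-hybridize, and 0 to 2 with 1 array left out. Members lower without overlap numbered 4 to 9 with 1 array left out, 9 without knockout replicate 2, and members higher numbered 0 to 3. Within arrays, with 1 array left out, the shift ran from -0.385 to 0.095 for Cacng8 minus Cacng2, -0.21 to 0.14 for Cacng4 minus Cacng2, -0.72 to -0.05 for Cacng3 minus Cacng2, -0.43 to -0.16 for Cnih3 minus Cnih2, -0.175 to -0.005 for Gria1 minus Gria2, 0.01 to 0.15 for Gria3 minus Gria2 and -0.1 to 0.1 for Gria4 minus Gria2.

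The median of the further auxiliary proteins was -0.16 after median centring and -0.138 to -0.045 with 1 array left out. Their count with an unadjusted p below 0.05 was 1 after centring, 1 among clusters at or above the median signal, 2 with the trend, 1 without cross-hybridizing clusters and 0 to 1 with 1 array left out. The scaffold median was 0.0215 with loess and -0.0925 to -0.03 with 1 array left out, and its count was 1 after centring, 1 with the trend and 0 to 1 with 1 array left out. The median of the members themselves ran from -0.12 to 0.01. Where 1 array was left out, the remaining array of its genotype was assumed to vary like the other genotype. Same-numbered arrays deviated from their genotype means with a correlation of 0.0516 across clusters. That value cannot show whether the replicate numbers paired the samples, since a pairing need not shift most clusters. With the replicate block the Cnih3 difference was again -0.345, and again 1 member had an unadjusted p below 0.05. Depth does not apply to arrays, and with 2 of them per genotype the precision is limited by their number.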
